A study of Mus musculus with 69 samples.

Results

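RNA of 8 genes of PPAR-alpha signalling and fatty acid oxidation was followed in 69 RNA-seq libraries of mouse kidney, which held either newly made or whole-kidney RNA. The genes were Ppara, Ppargc1a, Cpt1a, Cpt1b, Acadm, Ehhadh, Pdk4 and Angptl4. They were picked by gene symbol, 8 of the 24411 rows of the count table, and all 8 were among the 21175 genes tested. The mice carried a uracil phosphoribosyltransferase (UPRT) allele that a Cre recombinase switches on, written Hoxb7Cre;UPRTf/+ and Atp6b1v1Cre;UPRTf/+ in the labels (the Atp6v1b1 driver). In the study's account Hoxb7Cre is active in the collecting duct, and Atp6v1b1Cre in its acid-handling intercalated cells, in cells with markers of both collecting duct types and in a few interstitial cells. All mice received 4-thiouracil (4-TU), 430 mg/kg, 4 h before the kidneys were taken, and RNA tagged through UPRT was pulled down on streptavidin beads. The pulldown libraries were from untreated mice (control), from mice whose renal arteries had been clamped for a short time (iAKI, ischemic acute kidney injury) and from mice with restricted water and food (vAKI, volume depletion). The effects of food and of water restriction cannot be told apart in vAKI. Total control libraries held whole-kidney RNA, not selected by pulldown, of control mice of both genotypes.

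Male mice of 5.5 months gave 4 control, 4 iAKI and 3 vAKI libraries for Hoxb7 and 4 control, 3 iAKI and 4 vAKI libraries for Atp6v1b1. Female mice of 5.5 months gave 4, 3 and 4 libraries for Hoxb7 and 4, 3 and 3 for Atp6v1b1 in the same order. Of the Total control libraries 8 were female and 8 male at 5.5 months, and the controls also held 10 libraries of 3-month mice. Each library held 12618062 to 30305464 counts, with a median of 20868430. Levels are given as CPM (counts scaled to library size after TMM), and differences as log2 fold changes ± standard error (SE). A gene was called where edgeR's p, adjusted over all 21175 genes by the Benjamini-Hochberg method, was under 0.05. Library numbers in the labels ran in 3 blocks, called series A (36 libraries), B (21) and C (12) here, and all Hoxb7 iAKI and vAKI libraries were of series A. The Hoxb7 controls were spread over the series, so values within series A are given where they changed a result. Xist and Ddx3y matched the labelled sex in all 69 libraries.

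PPAR-alpha is a nuclear receptor that fatty acids activate. It pairs with a retinoid X receptor on direct repeats of a hexamer and switches on genes of fatty acid uptake and oxidation in fasting liver, heart, muscle and kidney, with PGC-1alpha (encoded by Ppargc1a) as a coactivator. In the kidney the proximal tubule is the segment best known for burning fatty acids. Cpt1a and Cpt1b encode the carnitine palmitoyltransferases that gate the entry of long chains into mitochondria, Cpt1b being the muscle and brown fat form. Acadm encodes the medium-chain acyl-CoA dehydrogenase of mitochondria and Ehhadh the bifunctional enzyme of peroxisomes. Pdk4 encodes a kinase that shuts off pyruvate dehydrogenase and so spares glucose, and Angptl4 a secreted inhibitor of lipoprotein lipase. Pdk4, Angptl4, Ehhadh, Acadm and both Cpt1 genes are textbook targets of PPAR receptors.

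In GENCODE vM21 (GRCm38, the assembly mm10) the genes lay on 8 loci: Ppara at chr15:85734983-85802819, plus strand, Ppargc1a at chr5:51454250-51567726, minus strand, Cpt1a at chr19:3322334-3385733, plus strand, Cpt1b at chr15:89416405-89425863, minus strand, Acadm at chr3:153922357-153944632, minus strand, Ehhadh at chr16:21761287-21787807, minus strand, Pdk4 at chr6:5483351-5496309, minus strand and Angptl4 at chr17:33773750-33781830, minus strand. A readthrough gene on the same strand, Gm44502, covers 81.4% of the exon bases of Cpt1b, so reads of Cpt1b are uncertain if the annotation used for counting held it. None of the other members shared exon bases with another gene. RefSeq promoters (GRCm38.p6, 250 bases before to 50 after the start) were at hand for 6 members. The 250 bases before the start are shown for Pdk4 and Ehhadh, the members of largest change, and for Cpt1a and Acadm, which held a PPAR hexamer. Capitals mark the hexamer AGGTCA, which lies on the strand opposite to the one shown and so appears as TGACCT.
Pdk4 (chr6:5496279-5496528, minus strand): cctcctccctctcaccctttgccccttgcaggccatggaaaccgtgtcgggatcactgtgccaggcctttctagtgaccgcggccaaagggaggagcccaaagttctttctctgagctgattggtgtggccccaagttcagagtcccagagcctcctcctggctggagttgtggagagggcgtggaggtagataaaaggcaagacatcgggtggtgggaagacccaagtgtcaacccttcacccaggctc
Ehhadh (chr16:21787835-21788084, minus strand): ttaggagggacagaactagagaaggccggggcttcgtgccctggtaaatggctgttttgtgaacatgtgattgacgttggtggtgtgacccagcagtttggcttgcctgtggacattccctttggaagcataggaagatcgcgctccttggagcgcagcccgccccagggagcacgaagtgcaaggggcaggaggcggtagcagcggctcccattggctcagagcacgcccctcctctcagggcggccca
Cpt1a (chr19:3323051-3323300, plus strand): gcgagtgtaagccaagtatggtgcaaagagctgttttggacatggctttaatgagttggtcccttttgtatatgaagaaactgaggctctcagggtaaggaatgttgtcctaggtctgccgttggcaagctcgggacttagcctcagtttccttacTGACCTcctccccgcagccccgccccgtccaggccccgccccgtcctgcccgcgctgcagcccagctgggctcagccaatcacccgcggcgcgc
Acadm (chr3:153944644-153944893, minus strand): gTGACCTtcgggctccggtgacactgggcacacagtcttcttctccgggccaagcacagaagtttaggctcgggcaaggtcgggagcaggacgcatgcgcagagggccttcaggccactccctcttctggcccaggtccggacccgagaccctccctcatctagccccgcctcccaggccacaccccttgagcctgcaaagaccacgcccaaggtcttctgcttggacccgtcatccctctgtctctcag
The hexamer lay 94 bases before the start of Cpt1a and 249 bases before that of Acadm, and 16.3% of all 32851 promoters held it on either strand. The whole PPAR element AGGTCANAGGTCA with up to 2 mismatches (3.86% of promoters), the forkhead element GTAAACA (3.65%) and the cAMP element TGACGTCA (1.79%) were in none of the 6 windows on either strand.

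The question asked of the control libraries was how RNA pulled down with the 2 drivers differed from whole-kidney RNA at rest. The pulldowns also held RNA of other segments, as the proximal tubule markers below show. Of the 8 members, 4 were higher in both kinds of pulldown than in Total control, 3 were lower and Cpt1a was not called. For Hoxb7 (10 libraries against 21) this stood beside 66.6% of all genes called, 35.6% higher and 31.1% lower. For Atp6v1b1 (11 against 21) it stood beside 63.8%, 34.4% higher and 29.4% lower. Each driver was set against Total control libraries of both genotypes. These may be of the same kidneys as the pulldowns, and the fit did not pair them. With a log2 difference of at least 1 as well, 5 and 4 of the 8 were called, beside 32.5% and 27.7% of all genes. Ppargc1a had the largest excess, with a log2 difference of 1.46 ± 0.11 (adjusted p = 3.62e-16) for Hoxb7 and 1.75 ± 0.11 (adjusted p = 2.81e-19) for Atp6v1b1. Ppara was higher by 0.82 ± 0.16 (adjusted p = 2.02e-05) and 0.86 ± 0.16 (adjusted p = 5.76e-06). Cpt1b, at about 1 CPM, was higher by 1.22 ± 0.22 (adjusted p = 4.38e-06) and 1.03 ± 0.22 (adjusted p = 7.23e-05). Pdk4 was higher by 0.97 ± 0.28 (adjusted p = 0.00186) for Hoxb7 and by 0.60 ± 0.27 (adjusted p = 0.0487) for Atp6v1b1. The call for Pdk4 in Atp6v1b1 pulldowns was lost within either sex, at 5.5 months alone, without a count filter and by DESeq2.

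Acadm and Ehhadh went the other way. The log2 difference of Acadm was -2.85 ± 0.14 (adjusted p = 2.49e-22) for Hoxb7 and -2.78 ± 0.14 (adjusted p = 8.74e-23) for Atp6v1b1, and that of Ehhadh -1.74 ± 0.23 (adjusted p = 3.53e-09) and -2.12 ± 0.22 (adjusted p = 9.42e-12). Angptl4 was lower too, at -1.17 ± 0.24 (adjusted p = 3.58e-05) and -0.89 ± 0.23 (adjusted p = 6.92e-04), and the call for Atp6v1b1 was lost in females alone, at -0.69 (adjusted p = 0.181). Cpt1a differed by 0.08 ± 0.12 (adjusted p = 0.587) and 0.10 ± 0.11 (adjusted p = 0.471), and for Atp6v1b1 in females alone it was called, at 0.39 (adjusted p = 0.0396). Between the control pulldowns of the drivers edgeR and DESeq2 called 0 of the 8, with 1 (Ppargc1a) at an unadjusted p under 0.05, beside 9.93% of all genes by edgeR. DESeq2 called 2399 genes there, against 2103 by edgeR. Fewer cells of a type and less RNA per cell cannot be told apart in such bulk samples, nor can cell origin and newly made against standing RNA in this contrast.

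Per kilobase of exon, the order of the levels differed between total and newly made RNA. In male Total control (n = 8) Ehhadh stood at 437 ± 110.1 CPM per kb (SD) and Acadm at 363 ± 33.03, above Pdk4 at 134 ± 106.97, Cpt1a at 119 ± 17.2, Ppara at 107.9 ± 14.9 and Angptl4 at 99.6 ± 35.2. Ppargc1a stood at 25.5 ± 4.67 and Cpt1b at 0.168 ± 0.0750 CPM per kb. In male Hoxb7 control pulldowns (n = 4) Pdk4 led with 221 ± 98.7, followed by Ppara with 159 ± 36.4, Cpt1a with 116 ± 25.8 and Ehhadh with 100.0 ± 63.9 CPM per kb. Ppargc1a (64.9 ± 15.1), Acadm (46.8 ± 8.49), Angptl4 (36.4 ± 7.71) and Cpt1b (0.316 ± 0.156) came after them. Neighbours in either order lay within 1 SD of each other in several places, Pdk4, Cpt1a and Ppara in Total control among them. By the study's account pulldown may favour RNA rich in uracil, and differing kinetics may limit comparison of genes. The order in the pulldowns thus describes read levels and is not a rank of expression.

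Other genes of the pathway, in 9 lists, were lower in the pulldowns more often than higher: 19 higher and 77 lower for Hoxb7 and 17 and 75 for Atp6v1b1, with a median log2 difference of -1.02 and -0.94 against 0.11 over all genes in both. All 15 genes of mitochondrial beta-oxidation were lower in both, with medians of -2.36 and -2.41, and so were all 5 of ketone body metabolism. Among the lowest were Etfb, a subunit of the electron transfer flavoprotein, at -3.66 ± 0.07 (adjusted p = 3.26e-37) for Hoxb7, Acads, the short-chain acyl-CoA dehydrogenase, at -3.46 ± 0.09 (adjusted p = 2.36e-34) for Atp6v1b1, and Dbi, the acyl-CoA binding protein, at -3.46 ± 0.10 (adjusted p = 1.16e-31) for Hoxb7. Fabp1, the liver fatty acid binding protein, averaged 2.76 CPM in Total control against 0.103 in Hoxb7 and 0.194 in Atp6v1b1 pulldowns, too few counts for a stable fold. In peroxisomal oxidation 0 higher and 16 lower of 16 were called for Hoxb7 and 0 higher and 14 lower of 16 for Atp6v1b1, and in omega-oxidation 0 higher and 5 lower of 7 and 0 higher and 6 lower of 7. The carnitine shuttle gave 2 higher and 5 lower of 8 and 2 higher and 6 lower of 8, fatty acid uptake and activation 3 higher and 10 lower of 13 and 2 higher and 9 lower of 13, lipid droplets and lipolysis 1 higher and 8 lower of 10 and 0 higher and 7 lower of 10, and the relatives of Pdk4 and Angptl4 3 higher and 9 lower of 15 in both.

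The receptors, partners and regulators were the only list of the 9 with more genes higher than lower, 10 and 4 of 17 for each driver. Nrip1, a corepressor of nuclear receptors, was higher by 1.63 ± 0.15 (adjusted p = 5.64e-13) for Hoxb7 and 1.197 ± 0.15 (adjusted p = 1.77e-09) for Atp6v1b1. Prkaa1, a catalytic subunit of AMP-activated kinase, was higher by 1.18 ± 0.06 (adjusted p = 2.44e-23) and Sirt1, a deacetylase, by 1.13 ± 0.12 (adjusted p = 6.76e-12) for Atp6v1b1. Acsl4, an acyl-CoA synthetase, was higher by 1.36 ± 0.10 (adjusted p = 9.21e-17) and Ucp3, a mitochondrial carrier of muscle and brown fat, by 1.57 ± 0.22 (adjusted p = 2.03e-08) for Hoxb7. The proximal tubule markers moved with the oxidation genes: 11 and 12 of 12 were lower for Hoxb7 and Atp6v1b1, and their summed level ran from 2291 to 3799.7 CPM in male Hoxb7 controls and 2337 to 4343 in male Atp6v1b1 controls against 20452 to 25509 in male Total control. Their part in the result was not tested.

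**Figure D1:**
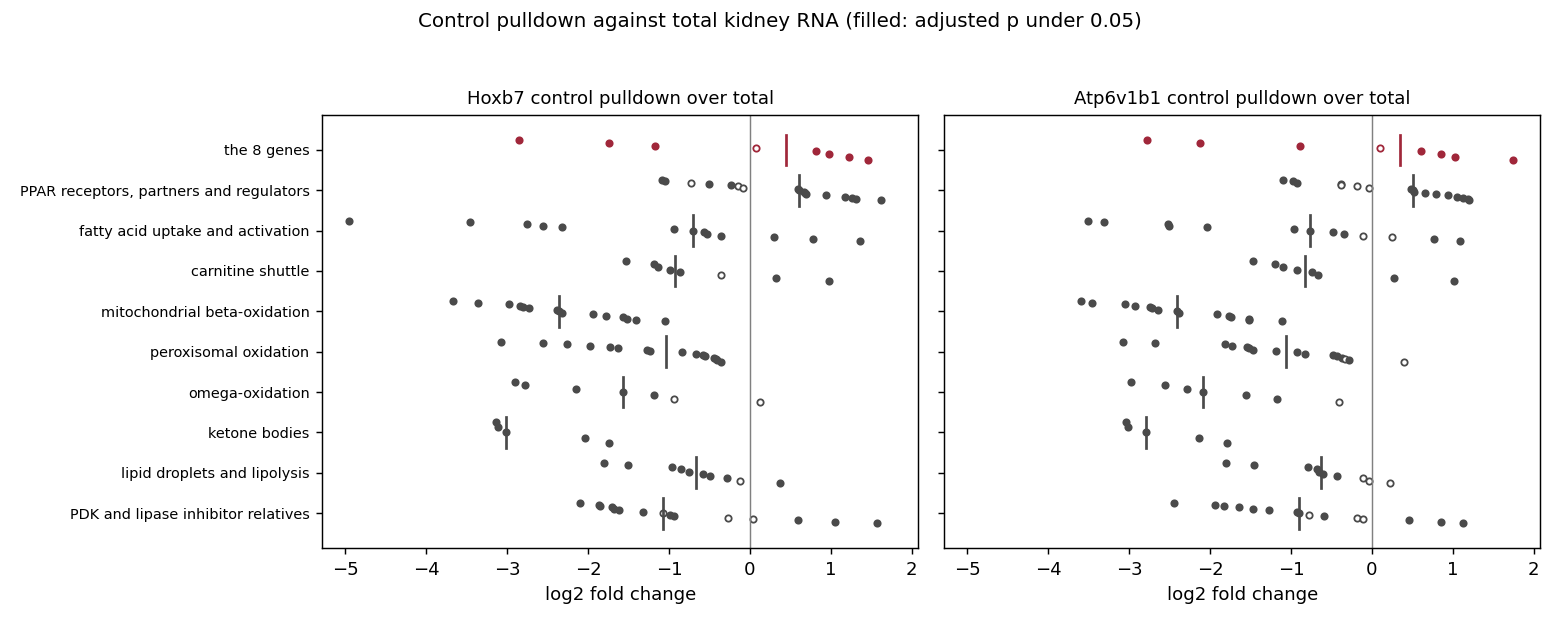
Log2 fold change of control pulldown over total kidney RNA (horizontal axis) for the 8 genes and 9 pathway lists (rows), Hoxb7 left and Atp6v1b1 right. Each point is a gene, filled where the adjusted p was under 0.05, and vertical strokes are medians. All 15 genes of mitochondrial beta-oxidation lie left of 0 in both panels, while the 8 genes are split, 4 called higher and 3 called lower.

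In males, Pdk4 and Angptl4 rose after vAKI in both drivers, Cpt1b rose in Hoxb7 and Ehhadh in Atp6v1b1, and Acadm fell in Hoxb7. After iAKI no member was called in either driver. For vAKI this gave 3 members up and 1 down of 8 in Hoxb7, beside 17.9% of all genes up and 17.6% down, and 3 up and 0 down in Atp6v1b1, beside 8.11% up and 6.47% down. For iAKI it gave 0 of 8 by edgeR in both, beside 6.13% and 8.51% of all genes, with 1 member (Ppargc1a) in Hoxb7 and 2 (Ppargc1a and Cpt1b) in Atp6v1b1 at an unadjusted p under 0.05. DESeq2 called 0 members after iAKI in Hoxb7 and 1 in Atp6v1b1, and its own counts over all genes for these are not reported here. The median log2 change of the members was 0.23 in Hoxb7 and 0.60 in Atp6v1b1 after vAKI, and -0.10 and -0.44 after iAKI, against 0 over all genes in each of the 4 comparisons.

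Pdk4, the pyruvate dehydrogenase kinase, stood at 1962, 2178 and 2656 CPM in the 3 male Hoxb7 vAKI libraries and at 498, 616, 716 and 1279 in the 4 controls. In Atp6v1b1 it stood at 2239, 2494, 2609.6 and 3046 CPM after vAKI and at 401, 518, 538 and 762 in controls. Every vAKI library of either driver was above every control library. The log2 fold change was 1.55 ± 0.30 (adjusted p = 2.95e-04) in Hoxb7 and 2.24 ± 0.29 (adjusted p = 4.13e-05) in Atp6v1b1. After iAKI the levels were 353, 646, 752 and 797 CPM in Hoxb7 and 418, 476 and 821 in Atp6v1b1, overlapping the controls, with changes of -0.27 ± 0.28 (adjusted p = 0.617) and 0.04 ± 0.30 (adjusted p = 1). Within series A, Pdk4 after vAKI changed by 1.199 (adjusted p = 0.00555) in Hoxb7 and by 2.19 (adjusted p = 0.00138) in Atp6v1b1, and within series B by 2.28 (adjusted p = 1.84e-06) in Atp6v1b1. With both sexes in 1 fit and sex as a covariate, the Hoxb7 call was lost, at 1.16 (adjusted p = 0.0774). From low to high, the male groups ran Total control, Atp6v1b1 control, Atp6v1b1 iAKI, Hoxb7 iAKI, Hoxb7 control, Hoxb7 vAKI and Atp6v1b1 vAKI, and the only neighbours whose ranges did not overlap were Hoxb7 control and Hoxb7 vAKI.

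Angptl4, the lipase inhibitor, rose after vAKI in both drivers. In Hoxb7 the vAKI libraries stood at 335, 356 and 425 CPM and the controls at 98.2, 114, 149.8 and 154, without overlap. In Atp6v1b1 the vAKI libraries stood at 186, 201, 406 and 435 CPM and the controls at 109.4, 129, 136 and 250.6, with 1 control above 2 of the vAKI libraries. The log2 fold change was 1.53 ± 0.32 (adjusted p = 6.90e-04) and 0.99 ± 0.30 (adjusted p = 0.0288). The call in Atp6v1b1 was lost when any of 5 libraries was left out (control replicates 6, 10 and 11, vAKI replicates 1 and 2), with log2 fold changes of 0.78 to 0.94 and adjusted p-values of 0.0594 to 0.098. It was also lost with both sexes in 1 fit, at 0.52 (adjusted p = 0.29), and with the compared groups alone, at 0.98 (adjusted p = 0.0949). Within series A the change was 1.15 (adjusted p = 0.0164) and within series B 0.66 (adjusted p = 0.00845). After iAKI Angptl4 changed by -0.11 ± 0.30 (adjusted p = 0.914) in Hoxb7 and -0.54 ± 0.33 (adjusted p = 0.332) in Atp6v1b1, where series A alone gave -1.29 (adjusted p = 0.00576).

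Ehhadh, the peroxisomal enzyme, had the largest change of the 8 members in males, in Atp6v1b1 alone of the drivers. It stood at 1268, 1529.9, 1607 and 2189 CPM in the Atp6v1b1 vAKI libraries against 117, 132, 259 and 320.2 in controls, a log2 fold change of 3.01 ± 0.43 (adjusted p = 1.11e-04). In Hoxb7 it stood at 250.2, 268 and 318 CPM after vAKI, within the range of the controls at 110.3, 158, 460.4 and 464, a change of -0.09 ± 0.43 (adjusted p = 0.944). The Atp6v1b1 vAKI level reached that of Total control (959.6, 1289.7 and 1764 CPM as lowest, median and highest). The difference between the drivers' responses, Hoxb7 minus Atp6v1b1, was -3.10 ± 0.60 (adjusted p = 0.00505), and Ehhadh was the 1 member of 8 called in that test, beside 4.2% of all genes. Controls differed by series, with series A controls at 460.4 and 464 CPM in Hoxb7 and 259 and 320.2 in Atp6v1b1 and series B controls from 110.3 to 158 CPM over both drivers. Within series A the change was 2.57 (adjusted p = 5.63e-04) in Atp6v1b1 and -0.72 (adjusted p = 0.0727) in Hoxb7, and within series B it was 3.66 (adjusted p = 2.07e-07) in Atp6v1b1. After iAKI Ehhadh changed by -0.51 ± 0.40 (adjusted p = 0.524) in Hoxb7 and 0.33 ± 0.43 (adjusted p = 0.701) in Atp6v1b1. Against the series A controls alone the Hoxb7 iAKI change was -1.16 (adjusted p = 0.0138).

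Of the 12 proximal tubule markers, 0 rose and 3 fell after vAKI in Atp6v1b1, and their summed level was 1602 to 4879 CPM after vAKI against 2337 to 4343 in controls. Of Ehhadh's partners in peroxisomal oxidation, 2 rose and 2 fell of 16 after vAKI in Atp6v1b1, Acox3, a branched-chain acyl-CoA oxidase, among those that fell with -1.43 ± 0.24 (adjusted p = 4.93e-04). Between vAKI and iAKI in Atp6v1b1, 7 of the 12 proximal tubule markers were higher in vAKI and 1 lower, and their part in that difference in Ehhadh was not tested.

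Acadm, the medium-chain dehydrogenase, stood at 118, 125 and 126 CPM in male Hoxb7 vAKI libraries and at 139.9, 184, 188 and 221 in controls. All 3 vAKI libraries were below the lowest control. The log2 fold change was -0.57 ± 0.18 (adjusted p = 0.0159), and the call was lost without Hoxb7 control replicate 3, at -0.47 (adjusted p = 0.0597), or Hoxb7 vAKI replicate 4, at -0.54 (adjusted p = 0.0582). Both sexes together gave -0.12 (adjusted p = 0.722). In Atp6v1b1 Acadm ranged from 144 to 219 CPM after vAKI and from 152 to 195 in controls, a change of 0.03 ± 0.16 (adjusted p = 0.963). After iAKI it changed by -0.05 ± 0.16 (adjusted p = 0.943) and -0.17 ± 0.18 (adjusted p = 0.591) in Hoxb7 and Atp6v1b1.

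Cpt1b, the muscle form of the carnitine gate, was low throughout, at 0.533, 0.741, 1.31 and 1.69 CPM in male Hoxb7 controls and 1.06, 1.09, 1.21 and 1.98 in Atp6v1b1 controls. After vAKI it stood at 2.88, 3.22 and 4.38 CPM in Hoxb7, above every control, and at 1.44, 3.07, 3.25 and 3.53 in Atp6v1b1, overlapping the controls. The log2 fold change was 1.70 ± 0.42 (adjusted p = 0.003) in Hoxb7 and 1.07 ± 0.39 (adjusted p = 0.0697) in Atp6v1b1. The Atp6v1b1 rise was called by DESeq2, at 1.08 (adjusted p = 0.0312), with both sexes in 1 fit, at 0.97 (adjusted p = 0.01), with the series as a covariate, at 1.09 (adjusted p = 0.0223), and with the 3 control males of 3 months added, at 1.36 (adjusted p = 0.00923). After iAKI it was -0.09 ± 0.42 (adjusted p = 0.978) and -1.23 ± 0.47 (adjusted p = 0.11). For Atp6v1b1 iAKI series A alone gave -2.11 (adjusted p = 0.014), both sexes -1.25 (adjusted p = 0.00657) and DESeq2 -1.24 (adjusted p = 0.0466). Of 7 skeletal muscle markers 2 rose and 1 fell in male Hoxb7 vAKI, 0 rose and 0 fell in Atp6v1b1 vAKI, and Myh4 had no count in the 22 male pulldowns. Of 11 fat markers 0 rose in either, and 7 fell in Hoxb7 and 3 in Atp6v1b1.

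Cpt1a, the broadly expressed carnitine gate, ranged from 1158 to 1184 CPM in male Hoxb7 vAKI and from 686 to 1059.9 in controls. Groups did not overlap, but the change of 0.41 ± 0.20 (adjusted p = 0.125) was not called, and the controls split by series, with both series A controls above both series B controls. With both sexes in 1 fit it was called, at 0.45 (adjusted p = 0.0322). In Atp6v1b1 the change after vAKI was 0.21 ± 0.19 (adjusted p = 0.497). After iAKI Cpt1a changed by -0.22 ± 0.19 (adjusted p = 0.567) in Hoxb7 and -0.38 ± 0.20 (adjusted p = 0.263) in Atp6v1b1, and within series A by -0.49 (adjusted p = 0.0189) and -0.56 (adjusted p = 0.0187).

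Ppara, the receptor, was not called in any of the 4 male comparisons, with changes of 0.33 ± 0.41 (adjusted p = 0.703) and 0.05 ± 0.44 (adjusted p = 0.986) in Hoxb7 and -0.85 ± 0.45 (adjusted p = 0.253) and -0.20 ± 0.41 (adjusted p = 0.81) in Atp6v1b1 after iAKI and vAKI. Its SD in male Atp6v1b1 vAKI, 488 CPM, was the highest of the 7 male groups. There the series A libraries stood at 821 and 1148 CPM against series A controls at 827 and 886, and the series B libraries at 163 and 181 CPM against series B controls at 467 and 515. The change after vAKI was 0.20 (adjusted p = 0.673) within series A and -1.505 (adjusted p = 4.33e-05) within series B. Among females, the lone series B library of Atp6v1b1 vAKI stood at 227 CPM and the lone series B control at 427, against 661 and 804 after vAKI and 797 and 1056 in controls of series A. The summed proximal tubule markers split the same way, at 4116 and 4879 CPM in the series A and 1602 and 2018 in the series B libraries of male Atp6v1b1 vAKI, against 3403 and 4343 in the series A and 2337 and 2539 in the series B controls, and their part was not tested. After iAKI in male Atp6v1b1, series A alone gave -1.29 (adjusted p = 0.00222), the compared groups alone -0.84 (adjusted p = 0.0496) and both sexes in 1 fit -0.97 (adjusted p = 0.0328). Of the 7 male groups Atp6v1b1 iAKI had the lowest mean and Hoxb7 iAKI the highest, and the ranges of all neighbours in that order overlapped.

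Ppargc1a, the coactivator, ranged from 534 to 699 CPM in male Hoxb7 iAKI, above its controls at 295 to 521, and from 329 to 429 in Atp6v1b1 iAKI, at the low end of its controls at 408 to 596. Neither change was called, at 0.56 ± 0.21 (adjusted p = 0.119) and -0.49 ± 0.23 (adjusted p = 0.188). Within series A the Hoxb7 change was 0.82 (adjusted p = 0.028), and with both sexes in 1 fit the Atp6v1b1 change was -0.68 (adjusted p = 0.0108). The difference between the drivers' responses was 1.05 ± 0.31 (adjusted p = 0.0401), 1 of 8 members called beside 7.79% of all genes, but the call was lost without any of 10 libraries (Atp6v1b1 control replicates 9, 10 and 11, Atp6v1b1 iAKI replicates 1 and 4, Hoxb7 control replicates 2 and 3 and Hoxb7 iAKI replicates 4, 6 and 7), at 0.91 to 1.09, adjusted p = 0.0539 to 0.138. After vAKI Ppargc1a changed by 0.05 ± 0.23 (adjusted p = 0.923) and -0.13 ± 0.21 (adjusted p = 0.746) in Hoxb7 and Atp6v1b1.

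**Figure D2:**
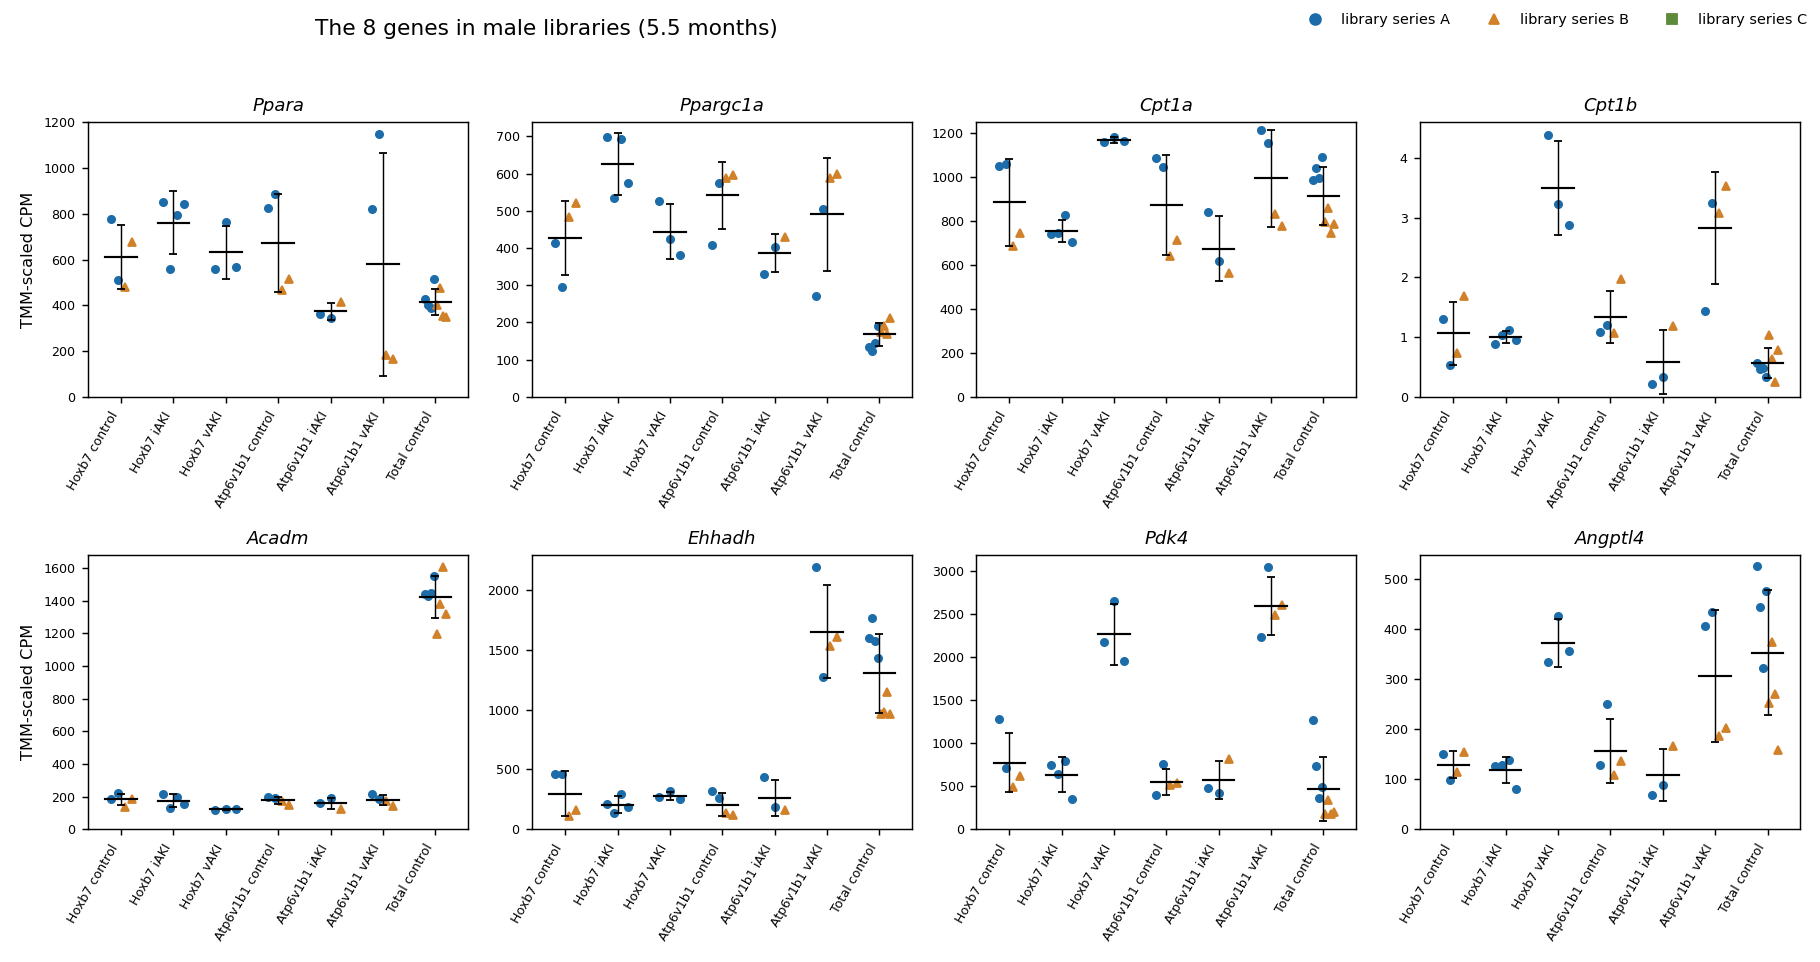
TMM-scaled CPM (vertical axes, from 0) of each of the 8 genes in every male 5.5-month library of the 7 groups. Points are libraries, shaped and coloured by library series, and bars are the mean ± SD. Pdk4 is at 1962 CPM or above in all 7 vAKI libraries, Ehhadh at 1268 CPM or above in the 4 Atp6v1b1 vAKI libraries and at 464 CPM or below in all other male pulldowns, and Ppara in Atp6v1b1 vAKI is split by series.

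Set against each other without the controls, vAKI exceeded iAKI for 4 members in Hoxb7, with 1 lower, and for 5 in Atp6v1b1, with 0 lower, beside 16.4% and 15% of all genes up and 16.9% and 14.3% down (33.3% and 29.3% in all). Pdk4 was higher in vAKI by 1.82 ± 0.30 (adjusted p = 6.65e-05) in Hoxb7 and 2.20 ± 0.32 (adjusted p = 3.35e-05) in Atp6v1b1. Angptl4 was higher by 1.64 ± 0.32 (adjusted p = 4.12e-04) and 1.53 ± 0.34 (adjusted p = 0.00156), and Cpt1b by 1.79 ± 0.42 (adjusted p = 0.0022) and 2.30 ± 0.47 (adjusted p = 8.80e-04). Those 3 and Cpt1a, at 0.62 ± 0.20 (adjusted p = 0.0196) and 0.59 ± 0.21 (adjusted p = 0.034), were called in both drivers. The Cpt1a call was lost in Hoxb7 without vAKI replicate 6 (0.62, adjusted p = 0.0524) and in Atp6v1b1 without any of iAKI replicates 4 and 5 and vAKI replicates 1 and 2 (0.45 to 0.51, adjusted p = 0.0888 to 0.159). Ehhadh differed by 2.68 ± 0.47 (adjusted p = 2.21e-04) in Atp6v1b1 and by 0.42 ± 0.43 (adjusted p = 0.482) in Hoxb7. Acadm was lower in vAKI in Hoxb7, at -0.52 ± 0.18 (adjusted p = 0.028), a call lost without any of iAKI replicates 4 and 6 and vAKI replicates 4, 6 and 7 (-0.54 to -0.40, adjusted p = 0.0654 to 0.106).

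**Figure D3:**
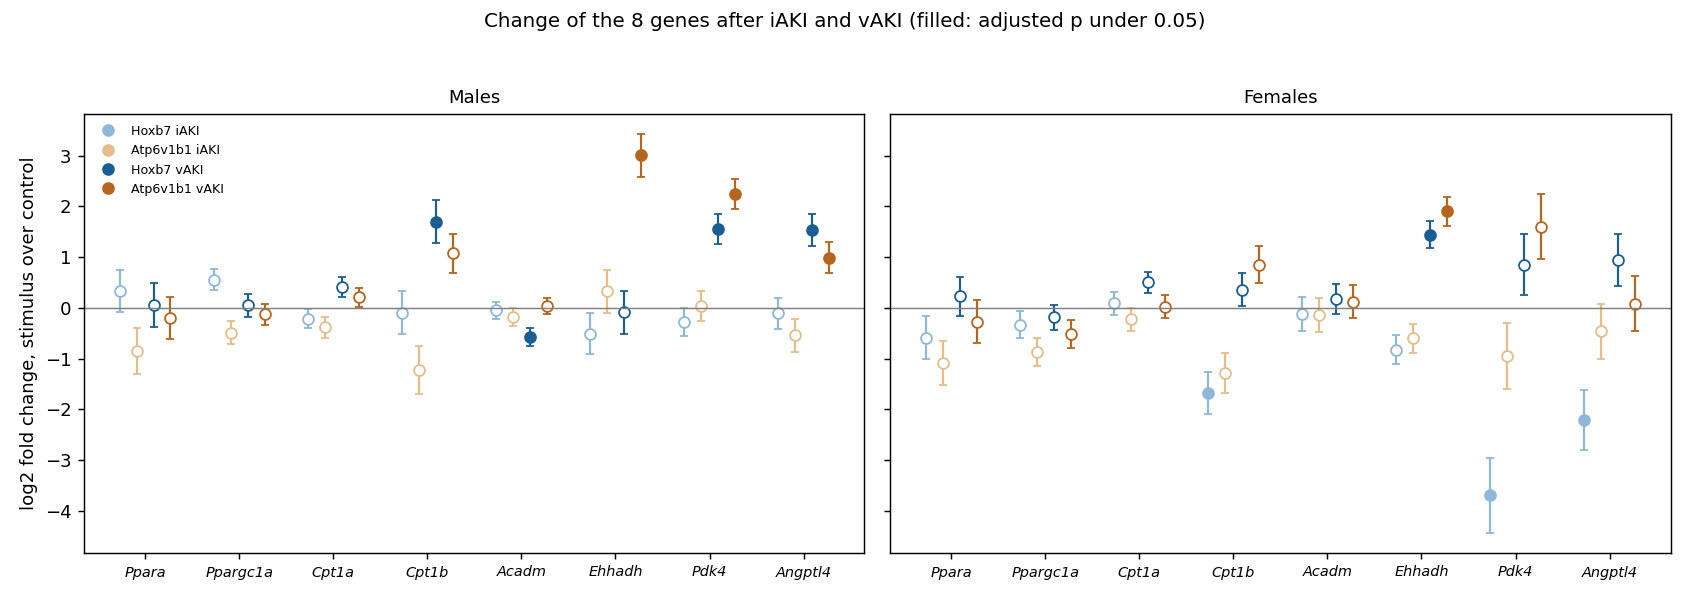
Log2 fold change ± SE (vertical axis) of each of the 8 genes after iAKI and vAKI for each driver, males left and females right, filled where the adjusted p was under 0.05. In males the filled points are 7, all after vAKI. In females 3 are below 0 after Hoxb7 iAKI and 2, both Ehhadh, above 0 after vAKI.

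Of the other genes of the pathway in males, 22 rose and 21 fell after vAKI in Hoxb7 (40.6%, beside 35.5% of all genes), and 22 rose and 8 fell in Atp6v1b1 (28.3%, beside 14.6%). After iAKI 1 rose and 16 fell in Hoxb7 (16%, beside 6.13%) and 3 rose and 12 fell in Atp6v1b1 (14.2%, beside 8.51%). Medians were -0.21 and 0.01 after vAKI and -0.22 and -0.03 after iAKI, in the order Hoxb7 and Atp6v1b1, against 0 over all genes.

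After vAKI in Hoxb7, the called genes of highest log2 fold change, of those with a mean of at least 10 counts, were Fgf21, a fasting hormone, with a vAKI mean of 1.05 and a control mean of 0.0709 CPM, the latter at the level of single counts (adjusted p = 2.72e-04), G0s2, an inhibitor of the lipase ATGL, at 2.93 ± 0.32 (adjusted p = 6.21e-07) with control and vAKI means of 17.7 and 134 CPM, and Acot8, a peroxisomal thioesterase, at 1.54 ± 0.16 (adjusted p = 4.58e-07). Those of lowest were Acot3, another peroxisomal thioesterase, at -1.62 ± 0.30 (adjusted p = 1.93e-04), Lpl, lipoprotein lipase, at -1.61 ± 0.36 (adjusted p = 0.00115), and Slc27a4, a fatty acid transporter, at -1.32 ± 0.27 (adjusted p = 4.62e-04). Among PPAR receptors, partners and regulators 7 rose and 4 fell of 17, and among the relatives of Pdk4 and Angptl4 6 rose and 1 fell of 15. In mitochondrial beta-oxidation 1 rose and 3 fell of 15, in peroxisomal oxidation 3 rose and 5 fell of 16, in uptake and activation 2 rose and 4 fell of 13, and in lipid droplets and lipolysis 2 rose and 2 fell of 10. In the carnitine shuttle 1 rose and 1 fell of 8, in ketone body metabolism 0 rose and 1 fell of 5 and in omega-oxidation 0 rose and 0 fell of 7.

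After vAKI in Atp6v1b1 the highest by the same rule included Cyp4a14, a fatty acid omega-hydroxylase, at 3.70 ± 1.07 (adjusted p = 0.0232) with a control mean of 22.6 ± 24.2 and a vAKI mean of 287 ± 304 CPM (SD, n = 4 each), and its relative Cyp4a12b at 2.498 ± 0.75 (adjusted p = 0.0268). The Cyp4a genes are related in sequence, so the assignment of reads among them is uncertain. Fgf21, with fewer counts than that rule asks and named after its values were seen, was called too (adjusted p = 0.00186). The lowest were Angptl7, a relative of Angptl4, at -2.08 ± 0.62 (adjusted p = 0.0276), Acox3 as above and Slc27a2, a very-long-chain acyl-CoA synthetase, at -0.85 ± 0.26 (adjusted p = 0.0317). In omega-oxidation 3 rose and 0 fell of 7, in mitochondrial beta-oxidation 4 rose and 0 fell of 15, among the relatives of Pdk4 and Angptl4 5 rose and 1 fell of 15, and among PPAR receptors, partners and regulators 3 rose and 0 fell of 17. In uptake and activation 1 rose and 2 fell of 13, in lipid droplets and lipolysis 2 rose and 1 fell of 10, in the carnitine shuttle 1 rose and 1 fell of 8 and in ketone body metabolism 1 rose and 1 fell of 5.

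After iAKI in Hoxb7 Dbi alone of the pathway genes rose, at 0.53 ± 0.13 (adjusted p = 0.0187), and the lowest by that rule were Ucp3 at -2.52 ± 0.41 (adjusted p = 0.0014), Lpl at -1.34 ± 0.32 (adjusted p = 0.0148) and Acot3 at -1.34 ± 0.27 (adjusted p = 0.00508). Of lipid droplet and lipolysis genes 0 rose and 4 fell of 10. Brown or white fat markers also fell, 0 up and 8 down of 11 in Hoxb7 iAKI and 0 up and 7 down in Hoxb7 vAKI, with summed levels of 123 to 277 CPM in controls, 51.0 to 102.7 after iAKI and 113 to 160.4 after vAKI. Their part in the result was not tested. After iAKI in Atp6v1b1 3 genes rose, Plin2, a coat protein of lipid droplets, at 1.75 ± 0.29 (adjusted p = 0.00117), Acsl5 at 0.58 ± 0.14 (adjusted p = 0.016) and Dbi at 0.49 ± 0.14 (adjusted p = 0.0312), and the lowest were Pdp2, the phosphatase that opposes Pdk4, at -1.51 ± 0.24 (adjusted p = 7.73e-04), Slc27a2 at -1.29 ± 0.29 (adjusted p = 0.00906) and Cyp4b1 at -1.27 ± 0.31 (adjusted p = 0.0132). Of the 12 proximal tubule markers 0 rose and 5 fell, with a summed level of 1053 to 1456 CPM after iAKI against 2337 to 4343 in controls. The part of these markers in the rises and falls was not tested.

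Markers of the targeted cells were lower after vAKI. In male Hoxb7, 6 of 7 principal cell markers fell after iAKI and 7 of 7 after vAKI, their sum going from 2716 to 3469 CPM in controls to 1016 to 1267 and 1121 to 1222. In male Atp6v1b1 1 of 8 intercalated cell markers rose and 0 fell after iAKI, and 0 rose and 4 fell after vAKI, with sums of 1192 to 1634 CPM in controls and 731 to 1144 after vAKI. The part of these shifts in the rise of Pdk4, Angptl4, Cpt1b and Ehhadh was not tested. Of endothelial markers 3 of 6 and of macrophage markers 3 of 7 rose, and 0 and 3 fell, after vAKI in Hoxb7, where 4 of 5 thick ascending limb markers fell. In Atp6v1b1 vAKI 1 of 6 endothelial and 0 of 7 macrophage markers rose, and 1 and 2 fell. Of the red cell list only Alas2 was tested, which was not called in any male comparison of stimulus and control.

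In females Ehhadh rose after vAKI in both drivers, with 1005, 1253, 1558 and 1805 CPM after vAKI and 315, 373, 692 and 695 in controls of Hoxb7 and 1237, 1474 and 2496 and 375, 474, 492 and 524 in Atp6v1b1. Neither driver's vAKI libraries overlapped the controls. The log2 fold change was 1.44 ± 0.27 (adjusted p = 0.0367) in Hoxb7 and 1.90 ± 0.28 (adjusted p = 0.00139) in Atp6v1b1, and it was the 1 member of 8 called in each, beside 0.109% and 18% of all genes. Male minus female, the Hoxb7 response of Ehhadh differed by -1.52 ± 0.54 (adjusted p = 0.0478), 1 of 8 members beside 16% of all genes, and without a count filter by -1.51 (adjusted p = 0.0537). In a fit of both sexes together the Hoxb7 vAKI change was 0.95 (adjusted p = 0.0406), the opposite sign to that of males alone. The female Hoxb7 call was lost within series A, at 1.01 (adjusted p = 0.651), and without control replicates 9 or 10, iAKI replicate 2 or vAKI replicates 2, 3 or 5, at 1.26 to 1.47, adjusted p = 0.0507 to 0.194. The summed proximal tubule markers ran from 3252 to 4863 CPM in female Hoxb7 vAKI against 2246 to 4749.6 in controls, and from 2903 to 5922 against 1924 to 4878 in Atp6v1b1. Their medians were 4260.2 against 2459 and 5405 against 2839 CPM. The median log2 change of the 12 markers was 0.38 in Hoxb7 and 0.60 in Atp6v1b1, and their part in the Ehhadh result was not tested.

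Pdk4 stood at 1054, 1300.4, 2065 and 2337 CPM in female Hoxb7 controls and 341, 1564, 1609.6 and 2318 in Atp6v1b1 controls. After vAKI it stood at 1068, 1481, 4083 and 5574 CPM in Hoxb7, overlapping the controls, and at 3135, 4367 and 5716 in Atp6v1b1, above every control. The changes were 0.85 ± 0.59 (adjusted p = 0.782) and 1.60 ± 0.64 (adjusted p = 0.0831). After iAKI Pdk4 in female Hoxb7 stood at 50.6, 165 and 174 CPM, below every control, a change of -3.69 ± 0.74 (adjusted p = 0.0213). Cpt1b changed by -1.68 ± 0.41 (adjusted p = 0.0394) and Angptl4, at 12.5, 22.8 and 37.4 CPM against 42.04, 123, 129 and 158 in controls, by -2.21 ± 0.59 (adjusted p = 0.0471), which made 3 of 8 members down beside 1.72% of all genes down and 3.14% in either direction. In female Atp6v1b1 iAKI 0 members were called by edgeR and 2 by DESeq2, with 4 at an unadjusted p under 0.05, beside 2.66% of all genes by edgeR. DESeq2 called more genes there, 1822 against 563 by edgeR. Male minus female, the Hoxb7 iAKI response differed by 3.44 ± 0.75 (adjusted p = 0.00703) for Pdk4 and by 2.12 ± 0.66 (adjusted p = 0.035) for Angptl4, 2 of 8 members beside 10.5% of all genes. For Atp6v1b1 the same test called 0 members by edgeR after either stimulus, with 0 after iAKI and 1 (Ehhadh) after vAKI at an unadjusted p under 0.05, beside 0% and 0% of all genes, and DESeq2 called 0 members.

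The 3 calls in female Hoxb7 iAKI rested on controls of all 3 series and iAKI libraries of series A. Against the lone series A control the changes were -3.03 (adjusted p = 0.291) for Pdk4, -2.42 (adjusted p = 0.209) for Angptl4 and -0.85 (adjusted p = 0.923) for Cpt1b. The Pdk4 call was lost without control replicates 9 or 10 or any of iAKI replicates 1, 2 and 3 (-3.96 to -3.31, adjusted p = 0.0541 to 0.166), and the Cpt1b call also without control replicate 6 (-1.99 to -1.46, adjusted p = 0.0658 to 0.244). For Angptl4 any of 12 of the 21 female libraries did so (-2.67 to -1.90, adjusted p = 0.0508 to 0.257).

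In Total control males were higher than females for Cpt1a by 0.34 ± 0.10 (adjusted p = 0.0139) and lower for Acadm, at -0.34 ± 0.10 (adjusted p = 0.0123), and Ppargc1a, at -0.49 ± 0.13 (adjusted p = 0.00864). That is 3 of 8 members, beside 25% of all genes. Ehhadh differed by -0.02 ± 0.14 (adjusted p = 0.989) and Pdk4 by -0.96 ± 0.41 (adjusted p = 0.0998).

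**Figure D4:**
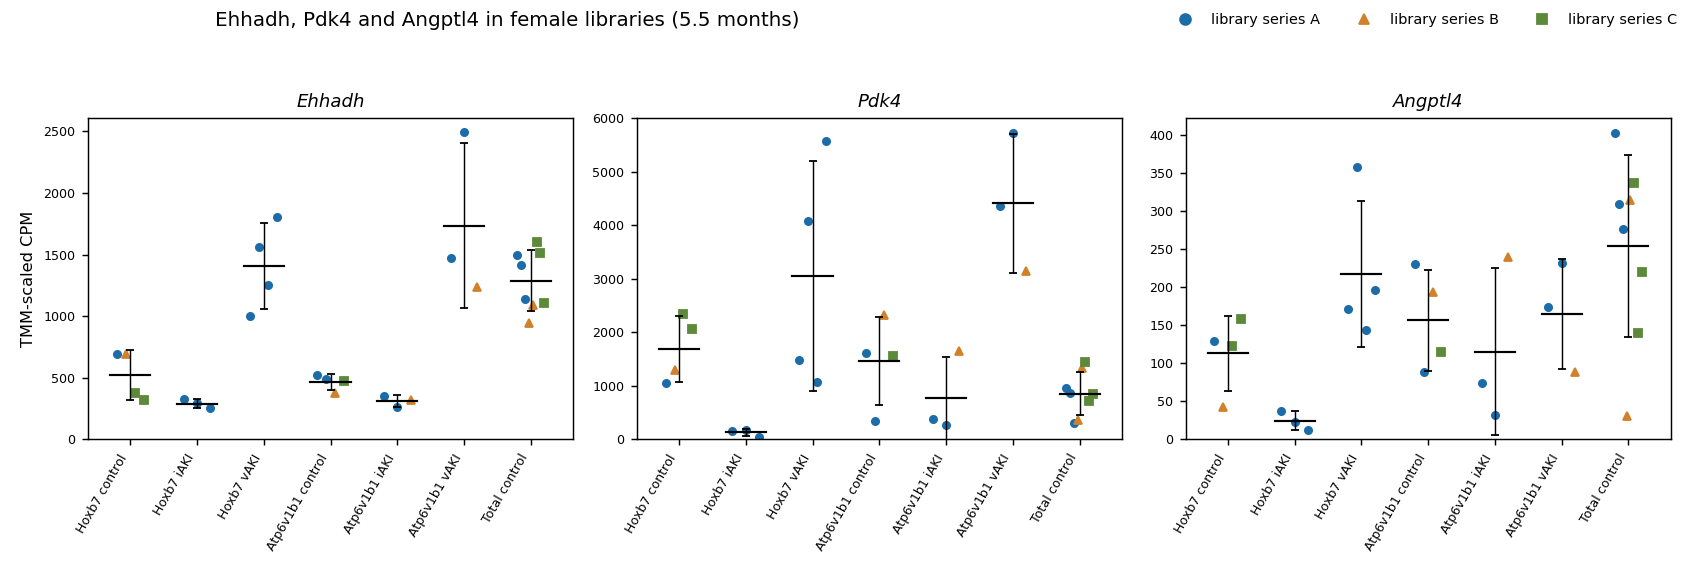
TMM-scaled CPM (vertical axes, from 0) of Ehhadh, Pdk4 and Angptl4 in every female 5.5-month library of the 7 groups, with points shaped and coloured by library series and bars giving the mean ± SD. Ehhadh is at 1005 CPM or above in all 7 vAKI pulldowns and at 695 CPM or below in all other pulldowns. Pdk4 is at 174 CPM or below in the 3 Hoxb7 iAKI libraries.

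Over the 22 male pulldown libraries, the genes whose log2 CPM followed each member most closely, of 13911 with a mean of at least 1 CPM, are given by Pearson's r as a description, since the libraries share stimuli and series. For Pdk4 they were Fam134b (r = 0.92), Tgfbr3 (r = 0.912) and Rab11b (r = 0.904), for Angptl4 Fam207a (r = 0.933), Rhbdf1 (r = 0.911) and Lrrc8a (r = 0.91) and for Cpt1b Dot1l (r = 0.947), Dusp16 (r = 0.937) and Pkd1l3 (r = 0.935). For Ehhadh they were Cish (r = 0.866), Acat2 (r = 0.866) and Hadha (r = 0.856). For Acadm they were Chdh (r = 0.841), Tbc1d13 (r = 0.835) and Pigz (r = 0.792) and for Cpt1a Ndrg1 (r = 0.922), Trim25 (r = 0.902) and 5031439G07Rik (r = 0.899). For Ppara they were Myo7b (r = 0.908), Slc2a2 (r = 0.905) and Nup188 (r = 0.891), and for Ppargc1a Fbxo30 (r = 0.843), Zfp942 (r = 0.836) and Spata7 (r = 0.822). No member was among the closest 3 of another. Between members r ran from -0.414 (Ppargc1a and Cpt1a) to 0.856 (Pdk4 and Angptl4). It was 0.798 for Cpt1b and Angptl4 and 0.783 for Cpt1b and Pdk4.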

How the data were processed

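The table held raw counts per gene, which the authors deposited for 69 libraries of 4-TU pulldown or total kidney RNA. According to the submitters' processing notes, which give no order or role, CASAVA 1.8.2, Trimmomatic 0.36, STAR 2.5.3a and HTSeq 0.6.1p2 were used with the build mm10, and the libraries came from a TruSeq RNA kit. The study's methods state default settings for HTSeq, under which reads are counted on the strand of the gene. The gene annotation, and whether the kit keeps strand, were not given in the sources used here. Groups, sexes and ages were taken from the labels. The labels do not say that each library came from another animal, so p-values measure the spread between libraries.

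Genes with at least 2 counts over all libraries (21175 of 24411) were tested with edgeR 4.0.16 (R 4.3.3, limma 3.58.1), by TMM normalization and the quasi-likelihood F test, with Benjamini-Hochberg adjustment over all genes and a threshold of 0.05. The 22 male pulldown libraries of 5.5 months were fitted together with 1 term per group, and likewise the 21 female ones. Differences between drivers and between sexes were contrasts of such terms, the latter in 1 fit of both sexes. Control pulldowns were compared with Total control over both sexes and ages with sex as a covariate, and the sexes within Total control of 5.5 months with the driver as a covariate. Within each series, by library number, the Total control libraries had the same order of driver, sex and age as the control pulldowns. Both may thus be of the same kidneys, which the labels do not state. The fit did not pair them, so its SE and p-values take no account of such a pairing. Log2 CPM used a prior count of 2. The code was tested on simulated data first. Counting depth, 12618062 to 30305464 per library, limits Cpt1b, at 4 to 98 counts per library of 5.5 months. Over 388 pairs of replicates the lowest chi-square per degree of freedom was 9.67, so no library appeared to be deposited more than once. Alternatives were DESeq2 1.42.0, its size factors in edgeR, other count filters, a fold threshold, subsets by sex, age and groups, library series as a covariate or a subset, a replicate block, and leaving out each library. The series A and series B subsets were chosen after seeing the data.

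The 8 members and all pathway and marker lists were chosen with earlier results of these data known. The pathway genes named were, per comparison, up to 3 called genes of highest and 3 of lowest log2 fold change whose mean count was 10 or more, and the genes most like a member were the 3 of highest Pearson's r. Promoters came from RefSeq on GRCm38.p6, gene positions from GENCODE vM21. Single values of some pathway genes are not reported here.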

Additional observations from a re-analysis of the deposited data

Results flagged for a closer look

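Single libraries stood far from the others of their group in 4 of 72 groups of 4 to 10 libraries tested over the 8 genes, where chance gives about 1 in 20. Ppara was high in replicate 2 of female Hoxb7 vAKI, at 1036 CPM. Ppargc1a was low in replicate 6 of male Atp6v1b1 controls, at 408 CPM, and high in replicate 1 of female Hoxb7 vAKI, at 829 CPM. Cpt1b was high in replicate 11 of male Atp6v1b1 controls, at 1.98 CPM.

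Responses that differed between groups by a test of the difference itself numbered 5 in edgeR. Between the drivers in males, Hoxb7 minus Atp6v1b1, these were Ppargc1a after iAKI, at 1.05 on the log2 scale, and Ehhadh after vAKI, at -3.10. Between the sexes in Hoxb7, male minus female, they were Pdk4 at 3.44 and Angptl4 at 2.12 after iAKI and Ehhadh at -1.52 after vAKI. All Hoxb7 iAKI and vAKI libraries were of series A while the Hoxb7 controls were of several.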

How the results depend on the processing

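Of 1040 single values recomputed under other settings, 979 stayed on their side of the threshold, 30 lost and 30 gained a call, and 58 changed sign with neither value called. With 1 library left out, 2013 of 2080 stayed, 56 lost a call, 11 gained one and 0 reversed. Ehhadh after vAKI in male Hoxb7 reversed to 0.95 when both sexes were fitted together. In the driver and sex differences, 1 member became 0 without a count filter for iAKI between drivers and for vAKI between sexes in Hoxb7. A log2 fold change of at least 1 left 4 members for Atp6v1b1 control against total and 5 for Hoxb7. Members called after iAKI in male Atp6v1b1 went from 0 to 3 (both sexes), 1 (DESeq2), 4 (series A alone), 1 (series as a covariate) and 1 (the compared groups alone), and in male Hoxb7 from 0 to 3 (series A alone) and 2 (series as a covariate). In females, iAKI in Atp6v1b1 gave 2 by DESeq2 and 1 in series A alone, vAKI in Atp6v1b1 gave 2 with the series as a covariate, and the 3 calls after iAKI and 1 after vAKI in Hoxb7 were 0 in series A alone and with that covariate. Leaving out 1 library gave, in males, 0 to 1 (iAKI) and 3 to 4 (vAKI) members in Hoxb7, 0 to 1 and 2 to 4 in Atp6v1b1, 3 to 6 and 4 to 5 for vAKI against iAKI, 0 to 2 (iAKI) and 1 (vAKI) between drivers, and in females 0 to 3 and 0 to 1 in Hoxb7 and 0 to 1 and 1 to 2 in Atp6v1b1. The causes were not tested.

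Replicate numbers did not pair the samples: groups shared 0 to 2 numbers with their controls, with correlations of -0.449 to 0.382. With a replicate block, male vAKI had 4 calls in Hoxb7, where Acadm lost its call (-0.48, adjusted p = 0.153) and Cpt1a gained one (0.70, adjusted p = 0.00355), and 2 in Atp6v1b1, where Angptl4 lost its call (1.06, adjusted p = 0.11), vAKI against iAKI had 6 and 5, and 0 members were called between drivers after either stimulus, after iAKI in males, and in all 4 female comparisons. Over all genes the block called 0 in male Atp6v1b1 iAKI, 0 between drivers after iAKI and 53 between drivers after vAKI. In females it called 0 genes after iAKI in either driver, 0 after vAKI in Atp6v1b1 and 1 after vAKI in Hoxb7. With so few genes called in these comparisons, their counts of 0 members cannot set the members apart from other genes. No block was fitted for controls against total or between sexes.

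Counts over all genes moved by more than 1.5 times, here with all libraries of a fit kept. In males they were 488 to 3078 (1298 as reported) for Hoxb7 iAKI, 2704 to 8904 (7521) for Hoxb7 vAKI, 0 to 3991 (1803) for Atp6v1b1 iAKI, 1091 to 6409 (3086) for Atp6v1b1 vAKI, and 0 to 2864 (1649) and 53 to 1626 (890) between drivers. In females they were 0 to 2273 (665), 1 to 114 (23), 0 to 1822 (563) and 0 to 4752 (3815) in the same order, and with 1 library left out 7 to 2958, 1 to 96, 36 to 1623 and 1586 to 4891. Controls against total gave 6874 to 14158 (14113) for Hoxb7 and 5866 to 13495 (13511) for Atp6v1b1, and the drivers' controls 748 to 2399 (2103). DESeq2 called 1 and 45 genes where edgeR called 0 between the sexes in Atp6v1b1.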
